A study of Mus musculus with 24 samples.

Results

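The lungs of transgenic AKR and transgenic C3H mice were compared, a pair of inbred strains that carry the same k haplotype of the H2 complex (the mouse MHC) and differ in the fibrosis class given to them in the series design. The comparison holds the 3 arrays titled as TG mice of AKR and the 3 titled as TG mice of C3H, and the 1 wild-type (WT) array of each strain gives the baseline, so 8 of the 24 arrays in the series belong to it. TG stands for a transgene for TGF-β1, and per the labels doxycycline was given in the water of WT and TG animals alike for 2 weeks. The groups were thus TG AKR (3), TG C3H (3), WT AKR (1) and WT C3H (1), all doxycycline-treated. Each array measured total RNA of the right lung lobe, a tissue of many cell types. The series design names AKR/J as prone to fibrosis and C3H as resistant, while the class code attached to the samples assigns them the other way round; the series design was followed here, for the names only. The labels also mark AKR as emphysematous and C3H as not. Age, sex, the hour at which lungs were taken, the C3H substrain and the promoter that drives the transgene were not stated in the labels, and the transgene's own level was not analysed here.

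TGF-β1 is a secreted cytokine stored in the matrix in a latent form. Once released, by αv integrins among other routes, it signals through its receptors and Smad proteins and raises collagens, crosslinking enzymes and other matrix genes in fibroblasts and epithelium. Inbred strains differ at many loci, so a difference between strains can be present without any transgene, and the WT mice show how far that is so. Values are the deposited array levels read as log2 intensities, and a difference of 1 is a 2-fold ratio of intensities. Differences are AKR minus C3H with the standard error (SE) of limma's fit over all 24 arrays, and a gene is said to be called where limma's Benjamini-Hochberg adjusted p over all 13499 genes was below 0.05. For a WT group of 1 mouse the spread was taken from the replicated groups.

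Of 13499 genes, 560 (4.15%) were called between the transgenic lungs, 245 (1.81%) higher and 315 (2.33%) lower in TG AKR. Most of these differences were modest, with a median size of 0.41 on the log2 scale, and 28 of the called genes reached 2-fold, 9 higher and 19 lower. In 555 of the 560 genes the 3 AKR mice and the 3 C3H mice did not overlap, against 3530 (26.2%) of all genes. The genes were called from these same mice, so this lack of overlap follows largely from the choice and is no separate support. The number of calls rested on the mice available. It was 270 without TG AKR mouse 1, 310 without mouse 2 and 338 without mouse 3, and it was 195 without TG C3H mouse 1 and 289 without mouse 2. The labels do not say whether mice of a group were littermates. The p-values rest on the spread within the replicated groups of all strains of the series, not only between these mice. With only the 8 arrays of both strains 420 genes were called, and 312 of them were among the 560. Array medians of the 8 mice lay between 7.766 and 7.835, and mice of the same TG group correlated at 0.9950 to 0.9972 across genes. Sequence variants between strains can change how a probe binds, and their part in these differences was not tested. Of the 20 called genes with several probe sets, 17 had all probe sets in one direction and 8 had a probe set that differed by less than 0.1.

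The gene with the largest excess in AKR was Fabp7, a fatty acid binding protein best known from brain. Its levels were 10.51, 10.46 and 9.81 in the TG AKR mice and 7.96, 9.06 and 8.24 in the TG C3H mice. The groups did not overlap, and the difference was 1.84 ± 0.35 (SE, 3 mice against 3, adjusted p = 0.0073). In WT lungs the order was the other way, 6.66 in AKR and 7.22 in C3H, a difference of -0.56 that was not called (adjusted p = 0.87). The TG mice of the other 4 strains lay at 8.98 to 10.60, so 2 of the TG C3H mice were below them all. Veph1, which encodes a pleckstrin homology domain protein, stood at 9.91, 9.96 and 9.70 in TG AKR and at 8.33, 8.21 and 8.31 in TG C3H. Its difference was 1.57 ± 0.25 (adjusted p = 0.002), and the WT mice showed 8.79 against 7.45. Prss22, a serine protease of airway epithelium, had the smallest p-value among the 12 largest higher genes. The AKR mice were at 8.63, 8.16 and 8.44 and the C3H mice at 7.19, 7.14 and 7.32, a difference of 1.19 ± 0.10 (adjusted p = 4.3e-06). All AKR values of Prss22 also lay above the TG mice of the other 4 strains, which reached 7.81.

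Nlrp1a, a sensor that assembles an inflammasome, was low throughout and higher in AKR with and without the transgene. TG AKR mice were at 6.12, 6.70 and 6.10, TG C3H mice at 5.12, 5.13 and 5.29, and the WT mice at 7.23 and 5.23. The TG difference was 1.13 ± 0.16 (adjusted p = 0.00089) and the WT difference 2.00 ± 0.28 (adjusted p = 0.0033). Members of the Nlrp1 family are near-identical copies, so which copy was measured is uncertain. Nptx1, a neuronal pentraxin, differed by 1.21, Grp, the gastrin-releasing peptide of neuroendocrine cells, by 1.10 and Mettl21e, a methyltransferase-like gene, by 0.99, with adjusted p between 0.034 and 0.049. The other genes among the 12 largest were clock genes, described further on. Fabp7, Veph1, Hlf, Prss22 and Nlrp1a, 5 of the 12, were still called whichever of the 6 TG mice was left out, Fabp7 narrowly so without TG C3H mouse 1 (1.61, adjusted p just under the threshold). Grp lost its call without any of 5 mice (differences of 0.80 to 1.28), Nptx1 without any of the 6 (0.87 to 1.39) and Mettl21e without any of 4 (0.70 to 1.17).

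The largest deficits in AKR were in Chil3, a chitinase-like protein secreted by macrophages, and Krt79, a keratin used here as an alveolar macrophage marker. Chil3 was at 7.96, 7.26 and 8.08 in TG AKR and at 9.14, 10.31 and 9.59 in TG C3H, a difference of -1.92 ± 0.48 (adjusted p = 0.033). Krt79 was at 7.70, 7.67 and 7.62 in TG AKR and at 8.96, 10.05 and 9.71 in TG C3H, a difference of -1.91 ± 0.45 (adjusted p = 0.025). Neither gene overlapped between the groups, and the C3H mice were the more scattered ones. Both calls depended on the number of mice. Chil3 lost its call whichever mouse was left out (-2.19 to -1.60), and Krt79 lost it without any of 5 mice (-2.22 to -1.67). In WT lungs Chil3 was 9.14 in AKR and 9.82 in C3H, and Krt79 was 8.25 and 9.65.

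The other large deficits were more even from mouse to mouse. Sfmbt2, a Polycomb-group protein, was at 6.96, 7.04 and 6.82 in TG AKR and at 8.16, 8.35 and 8.45 in TG C3H, a difference of -1.38 ± 0.08 (adjusted p = 8.6e-08). Nme7, a nucleoside diphosphate kinase family member found at cilia and centrosomes, was at 8.89, 8.86 and 8.97 against 10.50, 10.57 and 10.03, a difference of -1.46 ± 0.11 (adjusted p = 1.2e-06). In both genes it was C3H that stood apart: the TG mice of the other 4 strains lay at 6.70 to 6.94 for Sfmbt2 and at 8.79 to 9.10 for Nme7, beside the AKR mice. Dclre1a, a nuclease that repairs DNA crosslinks, had the same pattern, with 8.62, 8.36 and 8.62 in TG AKR, 9.80, 10.25 and 9.17 in TG C3H and 8.44 to 8.78 in the other strains. Its difference was -1.21 ± 0.17 (adjusted p = 0.00096). Htr2b, the serotonin receptor 2B, was at 6.64, 6.76 and 7.02 in TG AKR and at 8.51, 8.06 and 8.16 in TG C3H. It differed by -1.43 ± 0.12 (adjusted p = 5.3e-06), and by -2.42 ± 0.21 between the WT mice at 6.67 and 9.10 (adjusted p = 4.2e-05).

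Ntrk2, the receptor of brain-derived neurotrophic factor, was at 8.38, 8.03 and 8.61 in TG AKR and at 9.49, 10.02 and 9.57 in TG C3H, a difference of -1.35 ± 0.24 (adjusted p = 0.0049). Its WT levels of 7.07 and 7.66 lay below all 6 TG mice. Cym, the protease chymosin, was nearly level in TG AKR at 7.74, 7.66 and 7.67 and in both WT mice at 7.65 and 7.74, and stood at 8.79, 9.37 and 8.68 in TG C3H. The TG difference was -1.26 ± 0.18 (adjusted p = 0.001). Cym rose with the transgene in C3H by 1.21 (adjusted p = 0.039) and stood at 0.05 in AKR (adjusted p = 0.97), but the difference of these effects, -1.16 ± 0.37, was not called (adjusted p = 0.6). The rise in C3H was not called without TG C3H mouse 2 (adjusted p = 0.11) or without 1 of the other TG C3H mice (0.058). Dnase1l3, a secreted deoxyribonuclease, differed by -1.45, Fam124b by -1.41, Glrb, a glycine receptor subunit, by -1.26 and Sntn, a protein at the tip of motile cilia, by -1.23, with adjusted p between 5.3e-06 and 0.0068. Apart from Chil3 and Krt79, the 12 largest lower genes (10 of 12) were called whichever TG mouse was left out. Vipr2, a receptor of vasoactive intestinal peptide, was lower too (-1.12 ± 0.13, adjusted p = 9.8e-05), with 8.91, 9.05 and 9.26 against 10.12, 10.28 and 10.19.

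**Figure D1:**
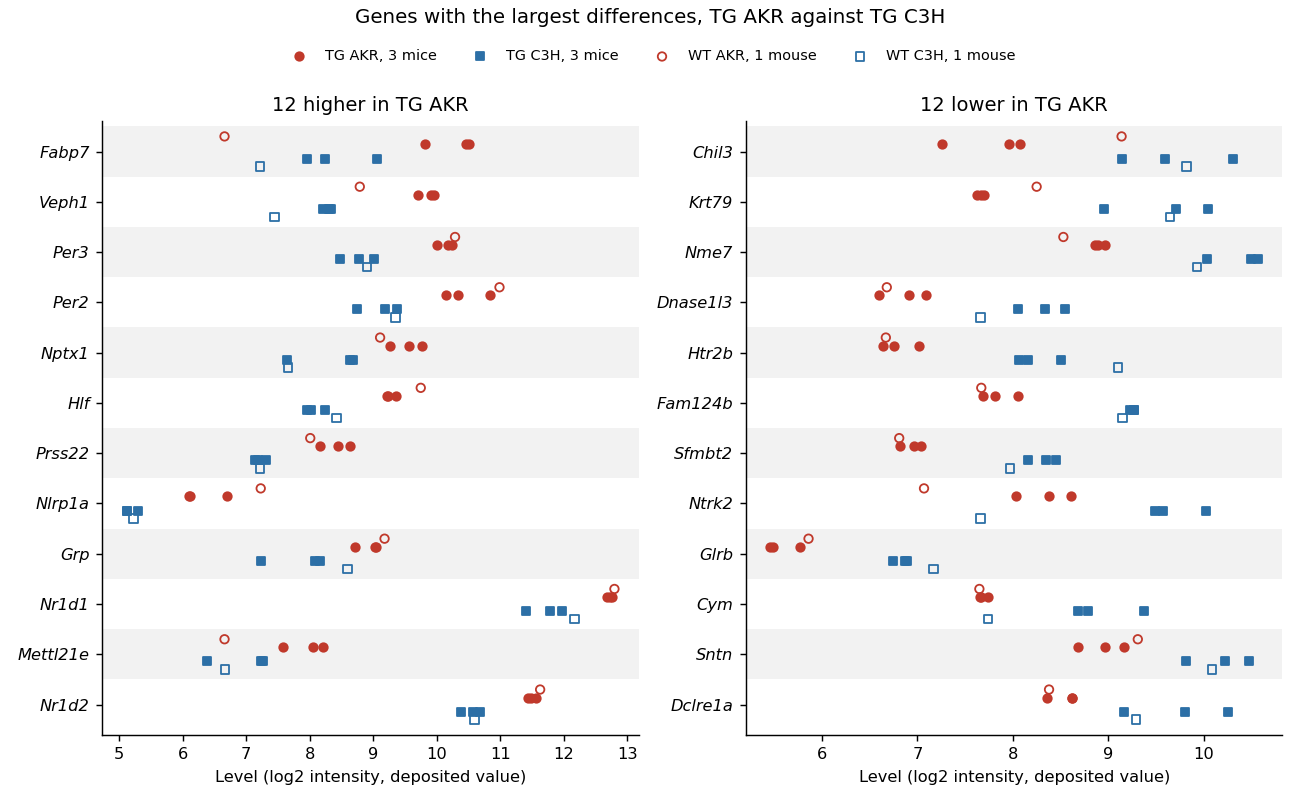
Level (log2 intensity) of the 12 genes with the largest called differences each way between TG AKR and TG C3H, with a symbol for each mouse: filled for TG, open for WT, circles for AKR and squares for C3H. The filled circles and squares do not overlap for any of these genes, which the choice of genes required, and the open symbols lie on the same sides except for Fabp7, where WT AKR (6.66) is below WT C3H (7.22), and for Mettl21e, where they nearly coincide (6.66 and 6.67).

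Most genes called in TG lungs differed in the same direction between the WT lungs. Of the 560 genes called in TG lungs, 477 (85.2%) had the same sign between the WT mice, against 61.9% of all genes, and in 342 (61.1%) the WT difference was of the same sign and at least 0.5 times as large. The TG and WT differences share no sample, and across all genes they correlated at r = 0.46, a description, since genes are not independent. With 1 mouse a strain, 49 genes (0.363%) were called between the WT lungs, 17 higher and 32 lower in AKR, and 1251 genes had an unadjusted p below 0.05. Of the 49, 29 were also called in TG lungs (59.2% of the 49 and 5.2% of the 560), all with the same sign. The largest called WT differences were those of Nlrp1a, Fibin (1.27), AY036118 (1.10) and Lrmda (1.06) on the higher side. On the lower side they were Htr2b, Cntn1 (-1.92), a neural adhesion molecule, Hbegf (-1.59), a growth factor of the EGF family, and Tshr (-1.43), the thyrotropin receptor. The WT call of Cntn1 (adjusted p = 0.049) was lost under 4 of 7 other settings (up to 0.22), that of Fibin (0.047) under 3 (up to 0.11) and that of AY036118 (0.044) with only the 8 arrays of both strains (0.17). Lrmda showed the same split in the TG mice, 9.73, 9.70 and 9.83 in AKR against 8.90, 8.91 and 8.91 in C3H (difference 0.85 ± 0.09, adjusted p = 7.2e-05). Hbegf did so as well, with 10.07, 10 and 10.19 against 11.16, 11.03 and 11.09 (difference -1.01 ± 0.14, adjusted p = 0.00059).

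The WT C3H array lay outside the other 23 arrays in 8 of 46 lists, and so did the WT AKR array in 8 others, against 0 to 3 for each of the 6 TG mice. The widest gap was in fat. In WT C3H the summed level of 6 adipocyte markers, taken as the mean deviation from the average of all 24 arrays, was 1.31, while the other 7 of the 8 mice lay between -0.24 and 0.08 and the other 16 arrays between -0.62 and 0.88. All 6 measured markers were higher in WT C3H than in WT AKR, with a median difference of -1.52, among them Adipoq (7.01 and 9.01), Car3 (10.78 and 13.19) and Fabp4 (8.66 and 10.46). In the TG comparison 0 of the 6 were called by limma and 0 had an unadjusted p below 0.05. Over all genes the shares were 4.15% and 19.5%, so 0 of 6 is near them and does not show equal levels. Markers of eosinophils and mast cells stood at 0.28 in WT C3H, against -0.06 to 0.08 in the other 7 mice and at most 0.16 in the other 16 arrays, and heart muscle markers at 0.68, against -0.12 to 0.48 and at most 0.64. The complement list was the only one of the 8 in which it was lowest (-0.31, against -0.19 to -0.08 and at least -0.21). What this array contributes to the WT differences and to the transgene effect in C3H was not tested.

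**Figure D2:**
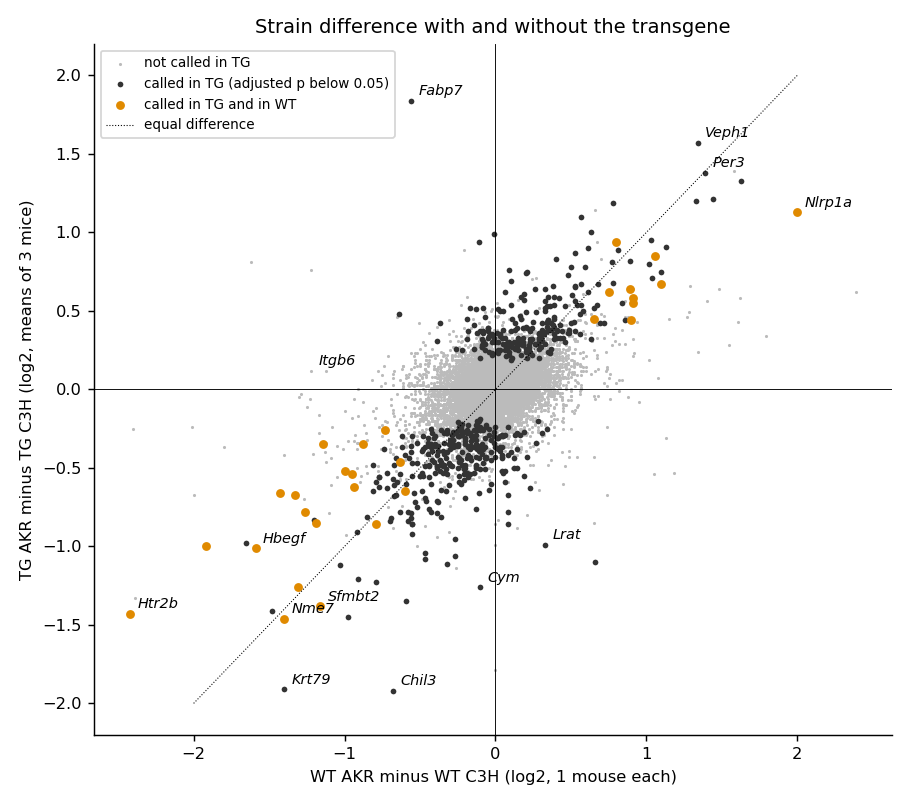
Difference between AKR and C3H in WT lungs (horizontal, log2, 1 mouse each) against the same difference in TG lungs (vertical, log2, means of 3 mice) for 13499 genes, with the 560 genes called in TG lungs in black and the 29 called in both in orange. Most called genes lie in the quadrants of equal sign (477 of 560), while Fabp7, at -0.56 and 1.84, lies away from the dotted line of equal difference.

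Set against the TG means of the other 4 strains (129, A/J, BALB/c and C57), the 560 genes fell in several kinds. In 262 genes AKR alone lay outside the range of those means, in 127 C3H alone, in 121 both and in 50 neither. A strain was counted as outside only in the direction of the called difference. Choosing genes for a difference between these strains itself favours such a place. The counts have no share over all genes beside them and are a description. A part of the called genes lay side by side: of the called genes with a measured neighbour after them in the RefSeq gene order (GRCm38.p6), 44 of 558 (7.89%) were followed by another called gene, against 4% of the genes that were not called. In 25 of the 44 neighbouring pairs both genes differed in the same direction and in 19 in opposite directions. There were 5 runs of 3 called neighbours. In 1 of them, on chromosome 13, Nnt (0.33), a mitochondrial transhydrogenase known to be disrupted in C57BL/6J, lies beside Paip1 (-0.32). Neighbouring transcripts can share sequence or a haplotype block, which was not tested.

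The list with the largest share of called members was the circadian clock. In the core clock, the activators BMAL1 and CLOCK bind E-boxes and drive the Period and Cryptochrome repressors, the REV-ERB repressors and the output factors TEF and HLF, which bind D-boxes. Of 10 measured clock genes on the list, 9 were called higher in TG AKR, against 1.81% of all genes, and 0 lower. Their median difference was 0.88 over the 10 genes, against 0.03 over all genes. The activators were not among the measured members. The list was chosen with earlier results of these data known.

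Per3 and Per2, Period genes whose proteins feed back on the activators, had the largest differences. Per3 was at 10.24, 10.18 and 10 in TG AKR and at 9.01, 8.48 and 8.78 in TG C3H, a difference of 1.38 ± 0.28 (adjusted p = 0.012). Per2 was at 10.33, 10.84 and 10.14 against 9.38, 8.75 and 9.19, a difference of 1.33 ± 0.30 (adjusted p = 0.021). Per1 was closer, at 10.92, 10.99 and 10.74 against 10.49, 10.04 and 10.11, a difference of 0.67 ± 0.18 (adjusted p = 0.049). Cry2, a Cryptochrome repressor, differed by 0.41 ± 0.11 (adjusted p = 0.038). Cry1 was at 8.49, 8.63 and 8.22 against 8.21, 8.10 and 8.04 and was not called (0.33 ± 0.09, adjusted p = 0.06). In none of the 10 genes did the AKR and C3H mice overlap, and AKR was the higher group in each, against 14.5% of all genes.

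Among the repressors and output factors, Nr1d1, which encodes REV-ERBα, was at 12.73, 12.68 and 12.76 in TG AKR and at 11.79, 11.40 and 11.98 in TG C3H. Its difference was 1.00 ± 0.21 (adjusted p = 0.014), and that of Nr1d2, which encodes REV-ERBβ, was 0.95 ± 0.20 (adjusted p = 0.015). Hlf was at 9.36, 9.24 and 9.22 against 8.25, 8.02 and 7.96, a difference of 1.20 ± 0.21 (adjusted p = 0.0047). Tef differed by 0.81 ± 0.22 (adjusted p = 0.047) and Ciart, a repressor of the BMAL1 and CLOCK pair, by 0.75 ± 0.17 (adjusted p = 0.018). Within a group, TG C3H mouse 2 was the lowest of its group in Per1, Per2, Per3, Cry2, Nr1d1, Nr1d2, Tef and Ciart. Without that mouse 1 of the list was still called, without TG C3H mouse 1 there were 5, and without TG AKR mouse 1 or 2 there were 3 and 4.

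The WT mice were split the same way. The hour at which lungs were taken was not stated in the labels, and its part in these TG and WT differences was not tested. WT AKR was above WT C3H in 9 of the 9 called genes, with a median WT difference over the list of 0.90, although no WT difference was called (6 of 10 had an unadjusted p below 0.05). Per2 stood at 10.99 and 9.35 in the WT mice, and Hlf at 9.75 and 8.42. The transgene effect was called by limma for 0 of the 10 genes in AKR and for 0 in C3H (1 and 0 at an unadjusted p below 0.05). Over all genes 2.11% were called in AKR and 0.822% in C3H, so 0 of 10 is near those shares. The difference of effects ranged from -0.35 to 0.37 over the 9 genes. As a mean deviation from the average of all 24 arrays, the list stood at 0.65, 0.67 and 0.51 in TG AKR, at -0.13, -0.47 and -0.21 in TG C3H, at 0.93 in WT AKR and at -0.02 in WT C3H. The TG AKR mean was above the TG means of all 5 other strains for 9 of the 9 genes, and the WT AKR mouse was above all other WT mice for 6. Single TG mice of other strains still reached the AKR range, as for Per3 (up to 10.29) and Hlf (up to 9.38).

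**Figure D3:**
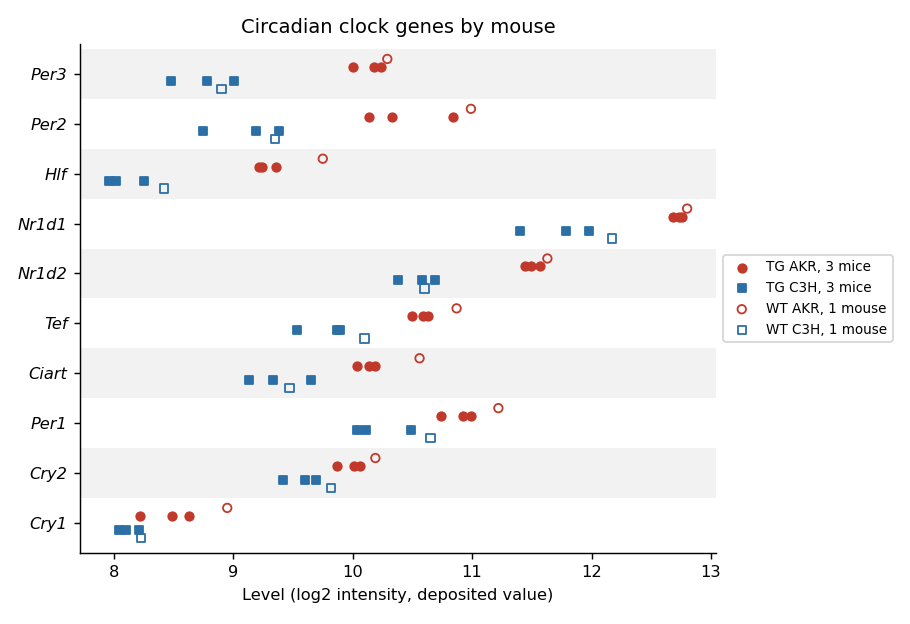
Level (log2 intensity) of the 10 measured clock genes in each of the 8 mice, ordered by the difference between TG AKR and TG C3H; filled symbols are TG, open symbols WT, circles AKR and squares C3H. Within each genotype circles lie to the right of squares in every row, from Per3 (difference 1.38) to Cry1 (0.33), and the WT mice are split the same way.

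Because these genes differ together, their promoters were searched on both strands for the E-box CACGTG and the D-box TTATGNAA, in RefSeq windows of 250 bases before to 50 after a start (GRCm38.p6, from C57BL/6J and not from the strains compared). Of the 9 called genes, 8 had windows, 10 in all. The E-box was found in 3 genes and the D-box in 2. Over all 32851 windows 7.15% held the E-box and 3.38% the D-box, which are shares of windows and not of genes. The windows with a match are shown 5′ to 3′ on the gene's strand, with E-boxes and D-boxes in capitals. The order is Ciart (chr3:95882179-95882478, minus strand, 3 E-boxes that start 116, 58 and 44 bases before the start), Per1 (chr11:69098699-69098998, plus strand, an E-box at 166 and a D-box at 24 before the start), Per3 (chr4:151044616-151044915, minus strand, D-boxes at 205 and 158) and Tef (chr15:81802423-81802722 and chr15:81811164-81811463, plus strand, an E-box at 127 and at 138).
Ciart: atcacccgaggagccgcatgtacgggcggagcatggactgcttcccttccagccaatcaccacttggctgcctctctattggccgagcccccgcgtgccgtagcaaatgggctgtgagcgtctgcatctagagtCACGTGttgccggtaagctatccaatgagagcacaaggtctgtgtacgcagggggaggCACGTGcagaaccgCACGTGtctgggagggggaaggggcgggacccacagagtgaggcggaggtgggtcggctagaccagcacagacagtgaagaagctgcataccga
Per1: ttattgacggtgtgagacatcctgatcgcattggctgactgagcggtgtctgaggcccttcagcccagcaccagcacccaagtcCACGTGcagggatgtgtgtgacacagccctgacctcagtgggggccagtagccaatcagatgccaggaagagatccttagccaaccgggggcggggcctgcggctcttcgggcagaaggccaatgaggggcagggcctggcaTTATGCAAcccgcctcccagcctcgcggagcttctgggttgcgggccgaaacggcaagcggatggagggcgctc
Per3: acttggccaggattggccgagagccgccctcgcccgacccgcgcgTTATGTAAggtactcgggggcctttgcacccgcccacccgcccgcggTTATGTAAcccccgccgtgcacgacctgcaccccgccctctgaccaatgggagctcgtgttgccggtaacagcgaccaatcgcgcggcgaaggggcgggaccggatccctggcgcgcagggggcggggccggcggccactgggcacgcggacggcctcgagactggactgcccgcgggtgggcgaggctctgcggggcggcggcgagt
Tef, first start: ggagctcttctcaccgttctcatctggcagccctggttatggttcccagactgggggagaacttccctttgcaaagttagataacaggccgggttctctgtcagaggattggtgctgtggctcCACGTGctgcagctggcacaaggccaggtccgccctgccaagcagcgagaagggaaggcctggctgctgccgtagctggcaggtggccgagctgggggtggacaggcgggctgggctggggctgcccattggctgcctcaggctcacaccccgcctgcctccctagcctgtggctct
Tef, second start: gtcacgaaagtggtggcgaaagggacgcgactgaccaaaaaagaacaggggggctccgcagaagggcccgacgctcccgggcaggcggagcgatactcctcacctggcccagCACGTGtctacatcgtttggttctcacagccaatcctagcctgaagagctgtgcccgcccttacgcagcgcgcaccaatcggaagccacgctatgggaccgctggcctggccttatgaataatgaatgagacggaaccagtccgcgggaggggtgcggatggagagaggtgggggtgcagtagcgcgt
A match is a description of the letters, and the windows of Cry2, Hlf, Nr1d1 and Nr1d2 held neither motif. Genes with the largest differences were found both with a match (Per3, 1.38) and without (Hlf, 1.20).

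In the retinoid list the called members differed in 1 direction, while over all 9 measured members 6 differences were below 0 and 3 above. Vitamin A is stored as retinyl esters made by LRAT and carried by RBP4, and retinoic acid made from it acts through RAR receptors. Of 9 measured members 4 were called lower in TG AKR and 0 higher (background 2.33% lower), with a median of -0.08. Lrat was at 10.58, 11.19 and 11.02 in TG AKR and at 11.91, 11.81 and 12.02 in TG C3H, a difference of -0.99 ± 0.26 (adjusted p = 0.041). Rbp4 was at 8.68, 9.01 and 8.85 against 9.73, 9.67 and 9.49, a difference of -0.78 ± 0.12 (adjusted p = 0.0017). Rarb, a retinoic acid receptor, differed by -0.50 ± 0.12 and Dhrs3, a retinaldehyde reductase, by -0.38 ± 0.09 (both adjusted p = 0.022). The other 5 members lay between -0.08 and 0.08. In AKR the transgene effect was called for Lrat (-1.54), Rbp4 (-0.82) and Rarb (-0.70), with adjusted p of 0.036, 0.017 and 0.033. None of the 3 kept its call whichever TG AKR mouse was left out: Lrat lost it without mouse 1 or 3, Rbp4 without mouse 1 and Rarb without mouse 2 or 3. In C3H 0 of the list were called (2 at an unadjusted p below 0.05). Over all genes 2.11% were called in AKR and 0.822% in C3H. The difference of effects for Lrat was -1.31 ± 0.51 and was not called (adjusted p = 0.72), so the effects are not shown to differ between the strains. The count of 4 fell to 2 without TG AKR mouse 1 or 2, to 2 without TG C3H mouse 3 and to 1 without TG AKR mouse 3 or TG C3H mouse 1. Rbp4 was called in each of these fits, and Lrat in none of them.

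Markers of single cell types were then examined; in whole lung, fewer cells of a type and less RNA per cell cannot be told apart. Of 8 alveolar macrophage markers, Chil3 and Krt79 were called lower in TG AKR and 0 higher, against 2.33% of all genes called lower. Of the 8 differences 7 were below 0, as were 41.1% of all genes. Marco, a scavenger receptor, was at -0.34, Ctsk, cathepsin K, at -0.61 and Mrc1, the mannose receptor, at -0.24, none of them called. The mean deviation of the list was -0.24, -0.31 and -0.31 in TG AKR, 0.13, 0.59 and 0.36 in TG C3H, -0.10 in WT AKR and 0.37 in WT C3H. With any 1 of the TG mice left out 0 or 1 of the 8 were called. Of 11 markers of monocytes and interstitial macrophages 1 was called, Ms4a7, lower in AKR (-0.56, adjusted p = 0.017), against 2.33% of all genes called lower. Ms4a7 was not called without any of 4 mice. Ccl6, a chemokine of myeloid cells, was lower as well (-0.61, adjusted p = 0.039), and lost its call whichever of the 6 mice was left out.

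Of 14 ciliated cell markers 4 were called lower in TG AKR and 0 higher, against 2.33% of all genes called lower. Of the 14 differences 13 were below 0, with a median of -0.30, and 41.1% of all genes lay below 0. Sntn was at 8.97, 8.68 and 9.17 in TG AKR and at 10.47, 10.22 and 9.81 in TG C3H. Dnaic1 (-0.56), Dnah5 (-0.49) and Tekt4 (-0.41), a dynein intermediate chain, a dynein heavy chain and a tektin of the ciliary shaft, followed, with adjusted p between 0.0054 and 0.022. Foxj1, the transcription factor of motile cilia, was at 8.53, 8.72 and 8.60 against 8.87, 8.73 and 8.70, which was not called (-0.15, adjusted p = 0.38). The list's mean deviation was -0.18, -0.27 and -0.18 in TG AKR, 0.25, 0.21 and -0.06 in TG C3H, -0.14 in WT AKR and 0.03 in WT C3H. The count was 2 without TG AKR mouse 2 and 2 without TG C3H mouse 1 or 2. The transgene effect was called in 0 of the 14 genes in either strain (1 in AKR and 0 in C3H at an unadjusted p below 0.05). That is near the shares of all genes, 2.11% in AKR and 0.822% in C3H.

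In 18 of 46 lists no member was called, and of their 229 genes 39 had an unadjusted p below 0.05, while 19.5% of all genes had one. These lists included alveolar type 2 cells (13 measured), T and NK cells (17), B and plasma cells (14), neutrophils (12), the cell cycle (26), MHC class I (14) and chaperones of the endoplasmic reticulum (15). The remaining lists had 1 or 2 called members each. Higher in TG AKR were Esm1 (0.67), a proteoglycan of endothelial tip cells, Lgr6 (0.61), a member of the Wnt list, and Satb1 (0.53), a chromatin organiser of lymphocytes. Aox1 (0.45), an aldehyde oxidase, and Akap5 (0.41), an anchoring protein listed for alveolar type 1 cells, were higher too. Lower in TG AKR were Upk1b (-1.11), a mesothelial uroplakin, Rgs5 (-0.91), a pericyte regulator of G protein signalling, Serpina3n (-0.85), a protease inhibitor, Masp1 (-0.85), a lectin pathway protease, and Sprr1a (-0.79), a cornified envelope precursor. Also lower were Dpt (-0.67), the matrix protein dermatopontin, Sox17 (-0.60), an endothelial transcription factor, Me1 (-0.56), malic enzyme, Naip6 (-0.53), an inflammasome sensor, Prox1 (-0.47), the lymphatic regulator, Adamts5 (-0.45), an aggrecanase, Scd1 (-0.35), a desaturase, Eif2ak2 (-0.35), the kinase PKR, and Igfbp4 (-0.34). Of these genes Esm1, Upk1b, Rgs5 and Masp1 were called whichever TG mouse was left out, and each of the others lost its call without at least 1 mouse. Bpifb1, a secreted airway protein, was called lower (-1.10, adjusted p = 0.046) with overlapping mice, 10.13, 9.93 and 10.61 against 11.58, 11.99 and 10.40. It lost its call without any of 4 mice (-1.56 to -0.77, adjusted p up to 0.18).

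Genes of the matrix that TGF-β1 is known to raise came next. Of 19 collagens and collagen-processing enzymes and 22 TGF-β targets and matricellular genes, 0 were called by limma, against 4.15% of all genes, while 4 and 8 had an unadjusted p below 0.05, against 19.5% of all genes. A count of 0 called of 41 is near the 4.15% of all genes. Under other settings Lox was called with only the 8 arrays of both strains (-0.49, adjusted p = 0.048), Fn1 (-0.24) and Thbs2 (-0.28) with array weights, Fn1 also with trended and robust variances, and Col4a3 (0.27) without TG C3H mouse 3; these were named after their values were seen. The median differences were 0.04 and 0.08, against 0.03 over all genes. The 41 differences ran from -0.49 to 0.42. All 41 of their 95% intervals lay within 1 log2 unit of 0 (from -0.85 to 0.77), 29 lay within 0.5, and 11 excluded 0. Col1a1, the main fibrillar collagen chain, was at 11.16, 11.39 and 11.09 in TG AKR and at 11.04, 11.24 and 11.16 in TG C3H, a difference of 0.07 with a 95% interval of -0.17 to 0.30. Lox, which crosslinks collagen, had the largest difference of the first list, with 11.05, 11.27 and 11.24 against 11.46, 11.84 and 11.72 (-0.49, interval -0.85 to -0.12, adjusted p = 0.12). Ltbp2, a latent TGF-β binding protein, had that of the second, with 11.02, 11.28 and 10.73 against 10.45, 10.83 and 10.50 (0.42, interval 0.07 to 0.76, adjusted p = 0.16). A p that misses the threshold does not show equal levels. The intervals give a range of sizes for these 6 mice, with the spread taken from the replicated groups of all strains. Of 9 elastic fibre genes 0 were called, against 4.15% of all genes, while 4 had an unadjusted p below 0.05, against 19.5%. The TG mice did not overlap in 6 of the 9, against 26.2% of all genes. Of 14 genes of latent TGF-β and its receptors 7 had an unadjusted p below 0.05, against 19.5% of all genes. The mice did not overlap in 7 of the 14, against 26.2% of all genes. Of the 14, Tgfb3 alone was called, lower in AKR (-0.48 ± 0.13, adjusted p = 0.043), against 4.15% of all genes called. Tgfb3 lost its call without any of 5 mice (-0.56 to -0.39).

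**Figure D4:**
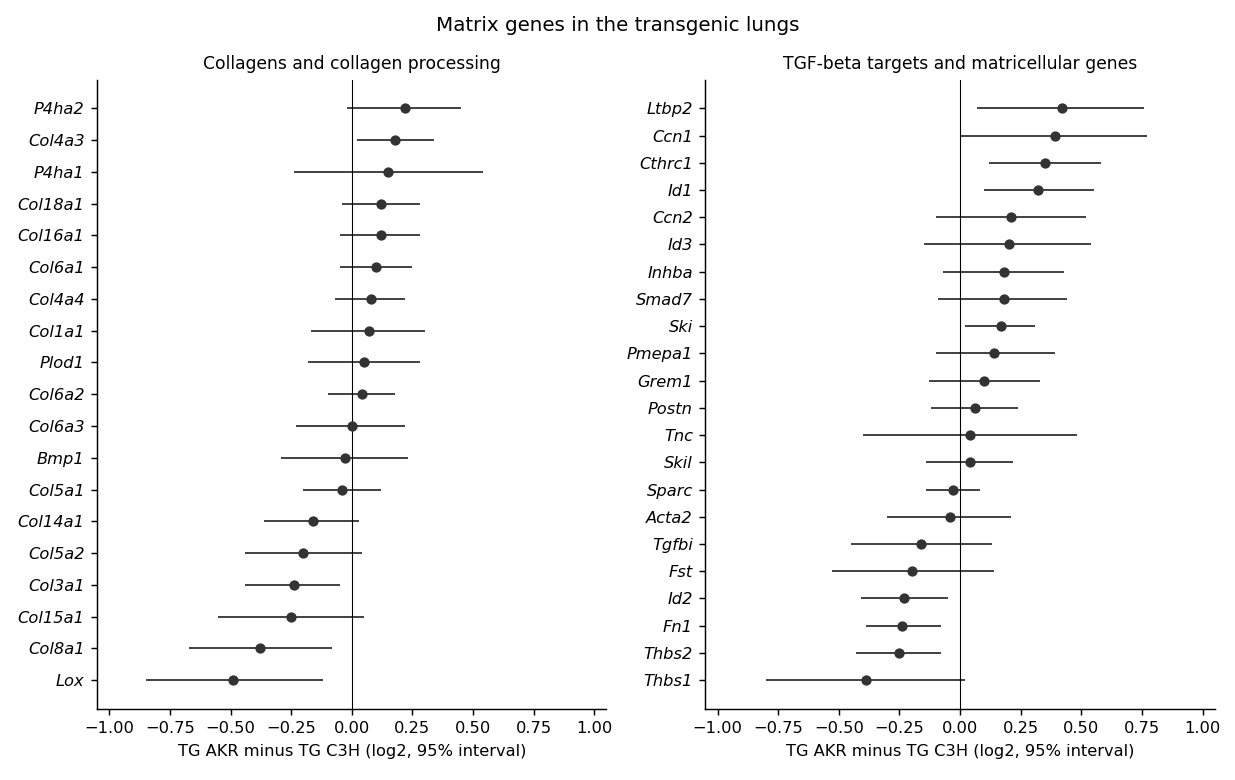
Difference between TG AKR and TG C3H (log2, horizontal) with its 95% interval from limma's fit for 19 collagen genes and 22 TGF-β target and matricellular genes. All intervals lie within 1 log2 unit of 0, 11 of the 41 exclude 0, and the points run from -0.49 (Lox) to 0.42 (Ltbp2).

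The response to the transgene was compared next, each TG group against the 1 WT mouse of its strain. In AKR 285 genes (2.11%) were called, 208 (1.54%) higher and 77 (0.57%) lower, and in C3H 111 (0.822%), 66 (0.489%) higher and 45 (0.333%) lower. Without TG AKR mouse 1 or 2 the AKR count was 167 or 178, and without TG C3H mouse 1 or 2 the C3H count was 49 or 16. Of the called genes 42 were shared, all with the same sign, which is 14.7% of the AKR genes and 37.8% of the C3H genes. Of the 285 genes, 261 (91.6%) had the same sign in C3H, and of the 111 genes 99 (89.2%) had the same sign in AKR. Across all genes the effects in AKR and C3H correlated at r = 0.44. The share of all genes with the same sign was not counted, so these percentages are a description. Col1a1 rose by 1.18 ± 0.16 in AKR (adjusted p = 0.001) and by 0.79 ± 0.16 in C3H (0.03). Col3a1 rose by 0.94 and 0.88, Pmepa1, which restrains TGF-β receptor signalling, by 1.14 and 1.09, Lox by 1.04 and 1.13 and Igf1, a growth factor, by 1.51 and 1.21, with adjusted p of at most 0.039. Esm1 fell by -1.46 and -1.45. Tnc, the matricellular protein tenascin C, rose by 1.67 in AKR (adjusted p = 0.0059) and stood at 1.25 in C3H (0.061). Lox lost its call in AKR whichever TG AKR mouse was left out (1.00 to 1.11), and 1 TG C3H mouse left out could end the calls of Col1a1, Igf1 and Lox in C3H.

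The difference of the effects was called for 1 of 13499 genes (0.00741%), Mcpt4, a chymase of mast cells, and 821 genes had an unadjusted p below 0.05. Mcpt4 was low, at 6.17, 6.11 and 6.0 in TG AKR, 5.98, 5.98 and 5.96 in TG C3H, 6.38 in WT AKR and 7.16 in WT C3H. The single high value was that of WT C3H, the array with the high adipocyte markers. Its eosinophil and mast cell list was high as well, but Mcpt4 and Cpa3 are themselves members of that list. Of the list's 12 genes 7 were higher in WT C3H than in WT AKR and 5 were lower. With only the 8 arrays of both strains the difference for Mcpt4 was not called (0.90, adjusted p = 0.14). In the same array Cpa3, a mast cell carboxypeptidase, was at 8.14 against 6.89 in WT AKR, while Cma1, Tpsb2 and Kit were at 6.31, 7.42 and 11.08 against 6.14, 7.17 and 11.25. The next smallest adjusted p was that of Itgb6 (0.12), the β6 integrin chain of epithelium that releases TGF-β from its latent form. Itgb6 was at 9.79 in WT AKR and 11.01 in WT C3H (difference -1.22, adjusted p = 0.011). The TG mice met at one level, 11.89, 11.98 and 11.77 in AKR and 11.56, 11.99 and 11.74 in C3H, a difference of 0.12 with an interval of -0.12 to 0.36. Itgb6 rose by 2.09 ± 0.16 in AKR (adjusted p = 4.8e-06) and by 0.75 ± 0.16 in C3H (0.038), and the difference of effects was 1.34 ± 0.23. In C3H the rise was not called without TG C3H mouse 2 or 3. Without TG C3H mouse 2 the difference of effects was called (1.45, adjusted p = 0.025). Fabp7 rose by 3.60 ± 0.50 in AKR (adjusted p = 0.0011) and stood at 1.20 ± 0.50 in C3H (0.43), with a difference of effects of 2.40 ± 0.70 that was not called (0.53).

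The shared H2 haplotype was examined last. The H2 complex holds the MHC class I and II genes, the peptide transporters and complement genes, and is among the most variable regions between inbred strains. From H2-K1 to Mog in the RefSeq gene order on chromosome 17 there were 245 genes, of which 136 were measured. Between TG AKR and TG C3H 1 of the 136 was called (0.735%), against 4.15% of all genes. Of the 136, 18 had an unadjusted p below 0.05, against 19.5% of all genes. The called gene was Notch4, an endothelial Notch receptor, at 10.76, 10.67 and 10.67 against 10.47, 10.32 and 10.46 (0.29 ± 0.07, adjusted p = 0.039). Notch4 lost its call whichever of the 6 TG mice was left out (0.24 to 0.32, adjusted p up to 0.14). Without TG AKR mouse 3 the 1 called gene of the complex was Snord52 and without TG C3H mouse 3 it was Ly6g6d, both named here after their values were seen, and in the other 4 fits there was none. The mice did not overlap in 26 of the 136 genes (19.1%, against 26.2% of all genes). Between the WT mice 0 of the 136 were called by limma, near the 0.363% of all genes. An unadjusted p below 0.05 was found for 14 of them, against 1251 of all 13499 genes. H2-Ea, a class II chain whose transcript is absent from b haplotype strains, was at 13.33, 13.31 and 13.25 in TG AKR, 13.40, 13.48 and 13.28 in TG C3H and 12.77 and 12.95 in the WT mice. Of 10 MHC class II genes 1 was called lower in TG AKR, against 2.33% of all genes. It was Ciita, their transcriptional activator, which lies outside the complex (-0.38 ± 0.10, adjusted p = 0.041). Ciita lost its call without any of 4 mice (-0.47 to -0.33).

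Other pairs of transgenic groups give the scale, and since they share mice with one another and with this pair they are a description. Between C57 and 129, both of haplotype b, 7.35% of the 136 genes and 13.3% of all genes were called. Between strains of haplotypes k and b the share in the complex was above that of all genes in each of 4 pairs. It was 14% against 10.5% for AKR and 129, 10.3% against 4.37% for C3H and 129, 25.7% against 22.4% for AKR and C57 and 16.9% against 13.3% for C3H and C57. H2-Ea differed by 6.54 to 6.87 in those 4 pairs. Chromosome 17 as a whole, the complex included, had 31 of 935 genes called (3.32%), and the share on the chromosomes most fully represented (1 to 4 and 10 to 19) ran from 2.95% to 5.74%.

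**Figure D5:**
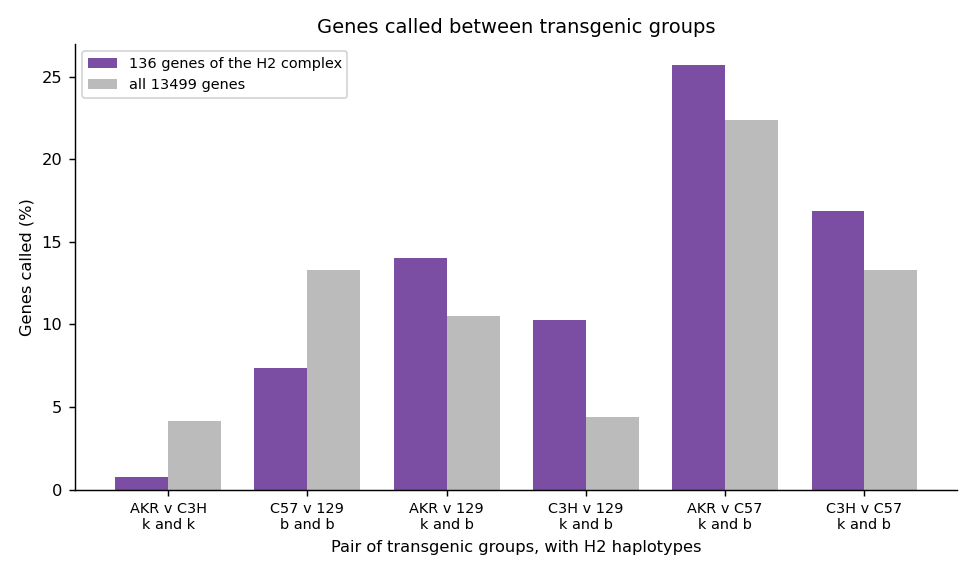
Share of genes called (percent, limma adjusted p below 0.05) between pairs of transgenic groups, for the 136 measured genes of the H2 complex (purple) and for all 13499 genes (grey), with the H2 haplotypes under each pair. The purple bar is below the grey one where haplotypes are shared, 0.735% against 4.15% for AKR and C3H, and above it in the 4 pairs that differ.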

How the data were processed

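Lung RNA of 24 mice of 6 strains was measured on microarrays, 1 array a mouse. The series matrix as deposited holds 1 value per probe set and array, from 3.41 to 14.75, taken here as log2 intensity. How the authors corrected, normalized and logged the scans is not given in the sources used here. The table was used in part: of 25285 probe sets with values, 14539 named 1 gene through the platform annotation, 781 named several and 9964 none. Genes of chromosomes 5 to 9 and X, and Tgfb1, are largely or wholly not analysed here. Of the named probe sets, 14480 matched RefSeq (GRCm38.p6) by Entrez number. For each gene symbol the probe set with the highest mean over 24 arrays was kept, which left 13499 genes.

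limma 3.58.1 (lmFit and eBayes, R 4.3.3, two-sided) was fitted to 12 group means over all 24 arrays, with Benjamini-Hochberg adjustment over all genes and a threshold of 0.05. Contrasts were TG AKR minus TG C3H, WT AKR minus WT C3H, TG minus WT in each strain, and the difference of those effects. The genes named first were the 12 largest called differences each way whose TG mice did not overlap, and for the WT contrast the 4 largest each way, beside members of the lists. The members and lists were chosen with earlier results of these data known. A list's mean deviation is the mean over its genes of each array's level minus the gene's mean over 24 arrays. Alternatives were array weights, trended and robust variances, other sets of arrays, quantile normalization, the mean of probe sets, a filter on dim genes, a replicate block and leaving out each TG mouse.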

Additional observations from a re-analysis of the deposited data

Results flagged for a closer look

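The effect of the transgene on Mcpt4, a mast cell chymase, differed between the strains by the test of the difference itself. The effect in AKR minus that in C3H was 0.90 ± 0.11 on the log2 scale (limma, adjusted p = 0.0071), with effects of -0.29 in AKR and -1.18 in C3H. The difference was not called in a fit of only the 8 arrays of both strains (0.90, adjusted p = 0.14). The value rests on the WT C3H mouse at 7.16, against 6.38 in WT AKR and 5.96 to 6.17 in the 6 TG mice. The TG levels lie under the lower quartile of the arrays, 6.24. The array that gives the high value is the one with the raised adipocyte markers, whose part was not tested. Its eosinophil and mast cell list, which holds Mcpt4 itself, was raised too.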

How the results depend on the processing

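The 560 calls between TG AKR and TG C3H became 960 with array weights and were 420 to 607 under the other settings with all TG mice kept, the replicate block (451) included. Array weights also gave 103 WT calls, 3 differences of effects and 429 AKR effects. With only the 8 arrays of both strains, 60 C3H effects, 0 genes of the H2 complex and 1 difference of effects, not that of Mcpt4, were called, and with the replicate block 31 C3H effects and 0 genes of the complex. Without dim genes 0 differences of effects were called, since Mcpt4 is then not tested. With 1 TG mouse left out, the ranges were 195 to 453 (TG), 1 to 2 (difference of effects), 167 to 292 (AKR effect), 16 to 98 (C3H effect) and 0 to 1 (H2 complex). With 1 mouse left out the TG differences of Col1a1 (-0.02 to 0.13) and Tnc (-0.09 to 0.17) could change sign. Deviations of same-numbered mice had correlations of -0.11, -0.05 and -0.00. These few values cannot exclude that the numbers pair the mice, and the replicate block lowered the calls to 451 (TG) and 31 (C3H effect). Each WT group of AKR and C3H is 1 mouse, which limits the WT differences (median SE 0.145, against 0.083 for TG) and every transgene effect.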
